A study of Mus musculus with 4 samples.

Results

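Mammary luminal lineage regulators are the transcription factors, receptors and signal transducers that specify and maintain the secretory and ductal cells lining the mammary gland. 10 genes were followed by their symbols in the deposited counts: the ETS-family factors Elf5, Ehf and Elf3, the lineage factors Gata3, Foxa1 and Sox9, the receptors Kit and Prlr, and the signal transducers Stat5a and Stat5b. All 10 were found among 23238 gene symbols, and 9 of them had enough counts to be tested beside 14801 tested genes in all. Their transcripts were counted by RNA sequencing of mammary tumours from FVB females aged 14 weeks. All mice carried PyMT, the polyoma virus middle T antigen, an oncogene that drives mammary carcinoma. 2 tumour samples were labelled Nr1d1+/+;PyMT and 2 were labelled Nr1d1-/-;PyMT, where Nr1d1 encodes REV-ERBα, a circadian nuclear receptor that represses transcription. The sources used here do not give the promoter that drives PyMT, the exons missing from the null allele or the hour of collection. They also leave it unsaid whether replicates are separate animals, and the p-values then measure nothing beyond how these samples spread, which can be technical.

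Luminal cells of the mammary gland divide into hormone-sensing cells, which carry the oestrogen and progesterone receptors, and secretory progenitors, which give rise to milk-producing alveoli. FOXA1 and GATA3 are known for opening chromatin and directing the hormone-sensing programme, with GATA3 needed throughout the luminal lineage. ELF5 directs the alveolar programme downstream of the prolactin receptor, which signals through the kinase JAK2 to STAT5A and STAT5B, and the receptor tyrosine kinase KIT marks luminal progenitors. In bulk tumour RNA, fewer cells of a type and less RNA per cell cannot be told apart.

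Promoter sequences were available for 8 of the 10 genes in the RefSeq table (GRCm38.p6), and Ehf and Sox9 had no entry. Those of Kit, Stat5a and Stat5b are shown because these genes were all lower in the libraries labelled Nr1d1-/-, and that of Gata3 because it was higher. Each is read 5′ to 3′ on the gene's own strand from the 250 bases before the transcription start, leaving out bases that an annotated exon of the same gene covers. Where RefSeq listed several starts, the one nearest the annotated 5′ end of the gene was used. For Stat5a and Gata3 the whole window still lies inside the gene span given below. Capitals mark a match on either strand to 1 of 5 motifs. AGGTCA is the half-site bound by REV-ERB and ROR nuclear receptors. TTCNNNGAA is bound by STAT5 proteins. AGATAA is recognised by zinc finger proteins like GATA3. TGTTTAC is recognised by forkhead proteins. GGAAGT is recognised by ETS proteins.
Kit (chr5:75574737-75574915, plus strand): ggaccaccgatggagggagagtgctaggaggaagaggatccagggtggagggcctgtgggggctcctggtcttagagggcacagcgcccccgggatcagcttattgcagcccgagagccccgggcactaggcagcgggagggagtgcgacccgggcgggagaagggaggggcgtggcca
Stat5a (chr11:100859581-100859655, plus strand): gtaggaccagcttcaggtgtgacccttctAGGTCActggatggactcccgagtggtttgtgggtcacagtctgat
Stat5b (chr11:100850725-100850831, minus strand): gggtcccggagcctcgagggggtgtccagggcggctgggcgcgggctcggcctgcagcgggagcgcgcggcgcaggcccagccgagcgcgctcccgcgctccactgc
Gata3 (chr2:9878601-9878850, minus strand): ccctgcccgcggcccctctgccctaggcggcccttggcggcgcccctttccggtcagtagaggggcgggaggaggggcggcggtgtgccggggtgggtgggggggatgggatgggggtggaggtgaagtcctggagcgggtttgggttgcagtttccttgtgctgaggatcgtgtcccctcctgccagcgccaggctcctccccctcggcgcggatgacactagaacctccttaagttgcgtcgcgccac

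Over the full 250 bases, Stat5a was the member with an AGGTCA match, 46 bases before the start, and it also held a GGAAGT match 242 bases before the start on the opposite strand, in bases not shown. Prlr held a GGAAGT match 137 bases before the start and Foxa1 a TGTTTAC match 141 bases before it. No letters of any of these motifs were found in the windows of Kit, Stat5b, Gata3, Elf5 and Elf3. Among 32851 promoter windows of the same length, 14% held AGGTCA, 7.02% TTCNNNGAA, 9.99% AGATAA, 3.17% TGTTTAC and 19.7% GGAAGT. A match describes the letters only and shows no binding.

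The libraries held 19116279 and 17768820 counts under the Nr1d1+/+ label and 15905404 and 18017279 under the Nr1d1-/- label, each pair being replicate 1 and then replicate 2, an order kept below. Levels are TMM-normalised counts scaled to library size (CPM), and TMM assumes that most genes do not differ. A log2 fold sets the Nr1d1-/- label over the Nr1d1+/+ label, with its standard error (SE) and an adjusted p over all tested genes from edgeR's quasi-likelihood test, called under 0.05. Nr1d1 itself did not check the labels: it had 20.2 and 10.3 CPM under the Nr1d1+/+ label, against 10.6 and 12.8 CPM under the Nr1d1-/- label. Its log2 fold of -0.37 (SE 0.35, adjusted p = 0.436 by edgeR) turned to 0.14 when Nr1d1+/+ replicate 1 was left out, and every direction below rests on the sample labels. Of all tested genes, 33.9% were called (16.5% higher and 17.3% lower), and the groups did not overlap for 70.5%. Every count of called genes in a list below is to be read beside these shares. Removing trends with GC content and transcript length from each library left 1748 genes higher and 1626 lower in place of 2446 and 2565, so the members are also given after that removal.

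Kit, Ehf, Stat5a and Stat5b fell, Gata3 and Sox9 rose, and Elf5, Elf3 and Prlr did not pass the test. Kit, the progenitor receptor, was 4.42-fold lower in the libraries labelled Nr1d1-/-. Elf5, the alveolar master factor, had nearly the same mean level in both genotypes under TMM scaling. In all 6 of the 9 tested members were called, against the 33.9% of all tested genes given above, and the members were listed with earlier results of these data known. The median log2 fold of the 9 was -0.19, and that of all tested genes was -0.01.

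**Figure D1:**
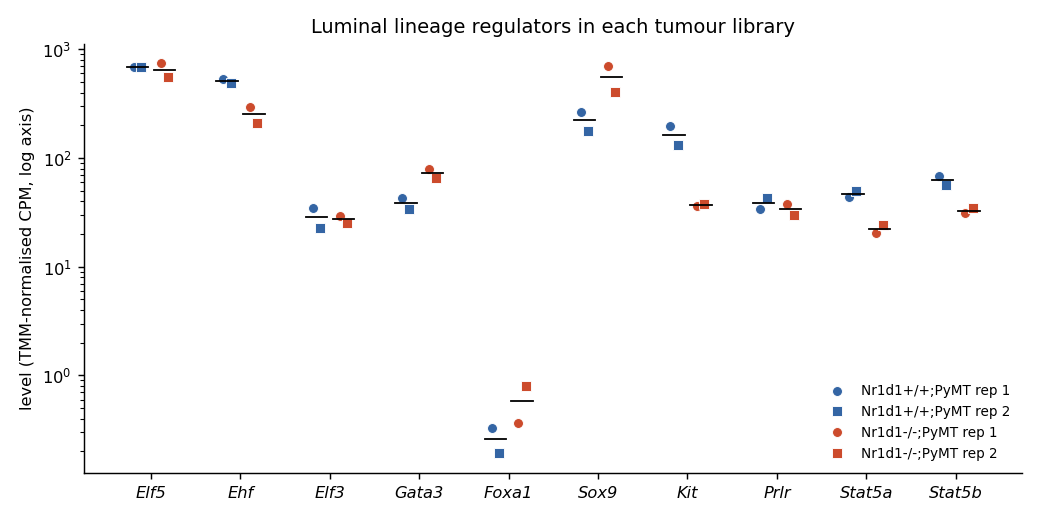
Level of each regulator in each of the 4 tumour libraries (y axis, TMM-normalised CPM on a log axis); circles and squares are replicates 1 and 2, blue the libraries labelled Nr1d1+/+;PyMT, red those labelled Nr1d1-/-;PyMT, and black bars the group means. Both red points lie below both blue points for Ehf, Kit, Stat5a and Stat5b and above them for Gata3, Sox9 and the sparsely counted Foxa1.

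Elf5 and Ehf are neighbours on chromosome 2. Both encode epithelial ETS factors, which bind DNA through the ETS domain, and EHF is found widely in glandular epithelium. Elf5 lies at 103411688 to 103450989 on the plus strand and Ehf at 103263433 to 103303278 on the minus strand (GRCm38), with 108410 bases between them. Their levels moved apart.

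Elf5 stood at 689 and 689 CPM under the Nr1d1+/+ label, against 741 and 554 CPM under the Nr1d1-/- label. The Nr1d1-/- values lie on either side of the Nr1d1+/+ values, so the groups overlap. The means were 689 ± 0.0314 and 647 ± 132 CPM (SD, n = 2 each), and the log2 fold was -0.09 (SE 0.20, adjusted p = 0.753 by edgeR). The close match of the Nr1d1+/+ pair is no estimate of the spread between tumours. The sign was not stable, at 0.037 after removal of the GC and length trends and 0.087 without Nr1d1-/- replicate 2. The longest Elf5 transcript has 3262 bases and 49.5% GC.

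Ehf was measured at 535 and 487 CPM under the Nr1d1+/+ label, against 294 and 210 CPM under the Nr1d1-/- label. Both Nr1d1-/- libraries lay well below both Nr1d1+/+ libraries. The means were 511 ± 33.9 and 252 ± 59.4 CPM (SD, n = 2 each), and the log2 fold was -1.02 (SE 0.21, adjusted p = 0.00746 by edgeR). The Ehf transcript is long and poor in GC (4469 bases, 42.5% GC), and after removal of both trends its log2 fold was -0.55 and no longer passed (SE 0.22, adjusted p = 0.0999 by edgeR).

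Within a library, the ratio of Elf5 to Ehf counts does not depend on the scaling between libraries. It was 1.29 and 1.41 under the Nr1d1+/+ label, against 2.52 and 2.64 under the Nr1d1-/- label. The groups are separated by far more than the replicates differ, with a log2 ratio higher by 0.94 in the libraries labelled Nr1d1-/-. An exact two-sided permutation test over the samples gave p = 0.333, the smallest that 2 against 2 allows. The ratio does depend on the unequal length and GC of both transcripts.

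Elf3, the third ETS factor and a regulator of epithelial differentiation, had 35.0 and 22.8 CPM under the Nr1d1+/+ label, against 29.3 and 25.4 CPM under the Nr1d1-/- label. The Nr1d1-/- values fell inside the Nr1d1+/+ range. The log2 fold was -0.08 (SE 0.26, adjusted p = 0.828 by edgeR), turning to 0.21 without Nr1d1+/+ replicate 1, and it was -0.48 after removal of the GC and length trends (SE 0.25, adjusted p = 0.194 by edgeR). Its longest transcript has 2095 bases and 56.5% GC. Elf3 (chromosome 1, 135253575 to 135258568, minus strand) shares 162 exon bases with the antisense gene Gm26642, and the sources used here do not say if counting used the strand. The log2 ratio of Elf5 to Elf3 was 4.30 and 4.92 under the Nr1d1+/+ label, against 4.66 and 4.45 under the Nr1d1-/- label, which overlap (exact permutation p = 1).

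**Figure D2:**
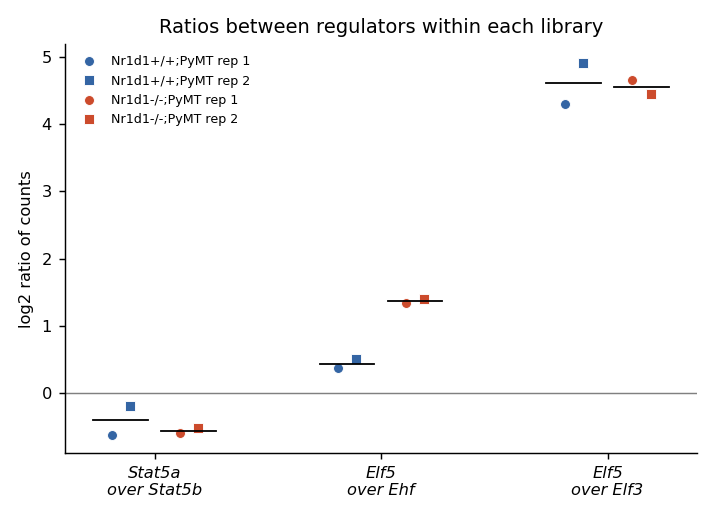
Log2 ratio of the counts of 2 regulators within each library (y axis) for Stat5a over Stat5b, Elf5 over Ehf and Elf5 over Elf3, with colours and symbols for genotype and replicate and black bars for group means. Elf5 over Ehf is about 0.43 in the libraries labelled Nr1d1+/+ and about 1.37 in those labelled Nr1d1-/-, and the other ratios overlap between the genotypes.

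Gata3 and Sox9 rose. GATA3 is a zinc finger factor that luminal cells need to keep their identity, and SOX9 is a high-mobility-group factor of luminal progenitors and, outside the gland, of cartilage. Gata3 had 42.6 and 33.8 CPM under the Nr1d1+/+ label, against 79.0 and 65.1 CPM under the Nr1d1-/- label. Both Nr1d1-/- libraries were above both Nr1d1+/+ libraries. The means were 38.2 ± 6.21 and 72.0 ± 9.80 CPM (SD, n = 2 each), log2 fold 0.91, SE 0.21, adjusted p = 0.0118 by edgeR. Gata3 stood at 1.03 after removal of the GC and length trends (adjusted p = 0.0106 by edgeR). The call was lost with library size as the only scaling (log2 fold 0.54, adjusted p = 0.0621 by edgeR), with scaling to luminal epithelial markers (0.60, 0.0547) and without Nr1d1+/+ replicate 2 (0.73, 0.094).

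Gata3 spans 9857078 to 9890034 of chromosome 2 (minus strand), with a longest transcript of 3215 bases and 49.7% GC. It shares 155 exon bases with the antisense gene Gm13256 and 77 with 9230102O04Rik on its own strand, so a small part of its counts is uncertain. T cells and innate lymphoid cells also express Gata3. Of 10 T cell and innate lymphoid genes 3 rose and 7 did not pass, a share near the 33.9% of all tested genes that were called. Their summed level was 34.8 and 38.5 CPM under the Nr1d1+/+ label, against 65.2 and 64.8 CPM under the Nr1d1-/- label. Without Il7r, an omission chosen after seeing the data, it was 27.7 and 33.8 CPM against 37.9 and 43.3 CPM. Il7r, the interleukin 7 receptor, rose from 7.10 and 4.74 CPM to 27.3 and 21.5 CPM, and Cd3d, a chain of the T cell receptor complex, from 3.93 and 3.97 CPM to 11.6 and 10.4 CPM, while Cd3e had 1.70 and 1.01 CPM against 1.98 and 0.558 CPM. Cd4 had 0.520 and 1.53 CPM against 3.74 and 1.86 CPM, with no overlap, and did not pass (1.42, adjusted p = 0.121 by edgeR). Thy1 had a higher mean under the Nr1d1-/- label but overlapped (0.29, 0.438). Other T cell genes had lower means under the Nr1d1-/- label without passing, and of these Cd3g and Lck overlapped between the groups. Cd8a had 18 and 13 counts against 0 and 2 (adjusted p = 0.0633 by edgeR), Cd3g had 3.31 and 5.94 CPM against 1.83 and 3.66 CPM (-0.73, 0.284), and Lck had 2.37 and 1.68 CPM against 1.03 and 2.05 CPM (-0.37, 0.638). The log2 fold of Cd3d lost its call without Nr1d1+/+ replicate 1 (1.42, adjusted p = 0.055 by edgeR) and without Nr1d1+/+ replicate 2 (1.46, 0.0624). Cd2, a T cell surface receptor, rose from 0.568 and 0.670 CPM to 2.05 and 2.85 CPM, a call lost when Nr1d1+/+ replicate 1 (1.83, 0.193) or replicate 2 (2.09, 0.174), or Nr1d1-/- replicate 2 (1.70, 0.0827), was left out. Their part in the rise of Gata3 was not tested.

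Sox9 had 268 and 177 CPM under the Nr1d1+/+ label, against 706 and 403 CPM under the Nr1d1-/- label. All Nr1d1-/- values exceeded all Nr1d1+/+ values, although replicate 1 was the higher library within each genotype. The means were 222 ± 63.8 and 555 ± 214 CPM (SD, n = 2 each), a 2.49-fold rise (log2 fold 1.32, SE 0.29, adjusted p = 0.0108 by edgeR). Leaving out single libraries moved the log2 fold between 0.86 (without Nr1d1-/- replicate 1) and 1.65 (without Nr1d1-/- replicate 2), and it passed in each such fit. It was 1.56 after removal of the GC and length trends (adjusted p = 0.00926 by edgeR). Sox9 lies on chromosome 11 from 112782224 to 112787760, with a transcript of 4135 bases and 49.3% GC.

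Cartilage markers were sparse beside Sox9. Acan, the cartilage proteoglycan, and Matn3 had at most 3 counts in every library, and Col2a1, the cartilage collagen, lay between 0.0733 and 0.994 CPM. Of the 3 tested chondrocyte genes Comp rose, Sox6 fell and Sox5 did not pass. Sox6 lost its call in several alternatives, with a log2 fold of -1.75 (adjusted p = 0.0288 by edgeR) against -1.33 (0.098) after removal of the GC and length trends. It also lost it when Nr1d1+/+ replicate 1 (-1.40, 0.209) or replicate 2 (-2.08, 0.0599), or Nr1d1-/- replicate 2 (-1.46, 0.0816), was left out. Comp, a cartilage matrix protein also made by other connective tissue, rose from 0.615 and 0.431 CPM to 4.62 and 8.69 CPM.

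Foxa1, the forkhead factor of hormone-sensing luminal cells, was close to the limit of detection. It had 7 and 4 counts in Nr1d1+/+ replicates 1 and 2 (95% exact Poisson intervals 2.81 to 14.4 and 1.09 to 10.2) and 5 and 13 counts in Nr1d1-/- replicates 1 and 2 (1.62 to 11.7 and 6.92 to 22.2). These intervals cover counting error only. The intervals overlap across genotypes, and a difference was not detectable at this depth. Foxa1 lies on chromosome 12 from 57540628 to 57546916. It did not pass the filter on low counts, and without a filter its log2 fold was 1.15 (SE 0.87, adjusted p = 0.385 by edgeR).

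The other hormone-sensing markers were mostly low as well. Esr1, the oestrogen receptor, had 4.12 and 3.45 CPM under the Nr1d1+/+ label, against 2.05 and 3.79 CPM under the Nr1d1-/- label, and it did not pass (adjusted p = 0.573 by edgeR). Pgr, the progesterone receptor, stayed at or under 0.372 CPM in all 4 libraries and was not tested. Of the 11 tested hormone-sensing genes 2 rose, 1 fell and 8 did not pass, while 33.9% of all tested genes were called. Wnt4, a secreted signal that hormone-sensing cells send to their neighbours, rose from 49.4 and 33.1 CPM to 485 and 182 CPM (log2 fold 3.01, SE 0.43, adjusted p = 0.00264 by edgeR), and Msx2, a homeobox factor, rose from 8.56 and 8.71 CPM to 29.2 and 20.7 CPM. Prom1, a surface marker of these cells, fell from 77.2 and 101 CPM to 18.4 and 34.1 CPM (adjusted p = 0.00399 by edgeR).

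Kit changed most among the members. It had 195 and 132 CPM under the Nr1d1+/+ label, against 36.1 and 37.8 CPM under the Nr1d1-/- label. The Nr1d1-/- libraries were nearly equal and both far below the lower Nr1d1+/+ library. The means were 163 ± 44.9 and 36.9 ± 1.22 CPM (SD, n = 2 each), log2 fold -2.15, SE 0.23, adjusted p = 0.00143 by edgeR. Its unadjusted p ranked 71 among the 14801 tested genes. Across all 19 alternatives the log2 fold stayed between -2.52 and -1.77 with adjusted p-values (edgeR, DESeq2 or limma) of at most 0.00947. After removal of the GC and length trends Kit stood at -1.81 (adjusted p = 0.00276 by edgeR). Kit lies on chromosome 5 from 75574916 to 75656722 on the plus strand, with a longest transcript of 5241 bases and 48.5% GC.

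Mast cells are the other main source of Kit in tissue. Fcer1a had no count in any library here, and Tpsab1 and Ms4a2 had at most 3. Other genes of the list had more, up to 96 counts for Gata2, 37 for Mcpt4, 19 for Hdc, 18 for Tpsb2 and 17 for Cma1 in a library. The summed level of the 9 mast cell genes was 2.79 and 7.47 CPM under the Nr1d1+/+ label, against 3.37 and 6.52 CPM under the Nr1d1-/- label. None of the 4 tested mast cell genes was called by edgeR, DESeq2 or limma-voom, although 1 was called higher by edgeR without Nr1d1-/- replicate 1. At an unadjusted p under 0.05 there were 0 with edgeR, 0 with DESeq2 and 1 with limma-voom. The part of mast cells in the fall of Kit was not tested.

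Several transcripts of KIT receptor signalling were lower beside Kit itself, and signalling was not measured. Of 14 tested genes of KIT signalling 6 fell and 8 did not pass, while 17.3% of all tested genes fell. The median log2 fold was -0.88, against -0.01 over all tested genes. With no overlap 9 lay lower and 2 higher, against 36.2% and 34.4% of all tested genes. The 2 were Pik3ca (log2 fold 0.61, adjusted p = 0.0588 by edgeR) and Ptpn6 (0.35, 0.215). Kitl, the ligand of KIT, fell from 27.3 and 34.4 CPM to 12.2 and 11.5 CPM (log2 fold -1.38, SE 0.24, adjusted p = 0.00469 by edgeR). Spred1, an inhibitor of RAS signalling, fell from 82.8 and 88.2 CPM to 35.8 and 40.6 CPM, and Plcg1, a phospholipase bound by activated receptors, from 19.3 and 22.1 CPM to 7.48 and 7.76 CPM. Lyn, a SRC-family kinase, fell from 70.7 and 74.4 CPM to 24.3 and 39.3 CPM. With edgeR 7 of the 14 had an unadjusted p under 0.05 and were lower, and 1 was higher. Kitl (-0.77, adjusted p = 0.0409 by edgeR) and Spred1 (-0.60, 0.0422) were smaller changes after removal of the GC and length trends. DESeq2 called 1 higher and 6 lower, and edgeR after removal of the GC and length trends called 1 higher and 4 lower.

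**Figure D3:**
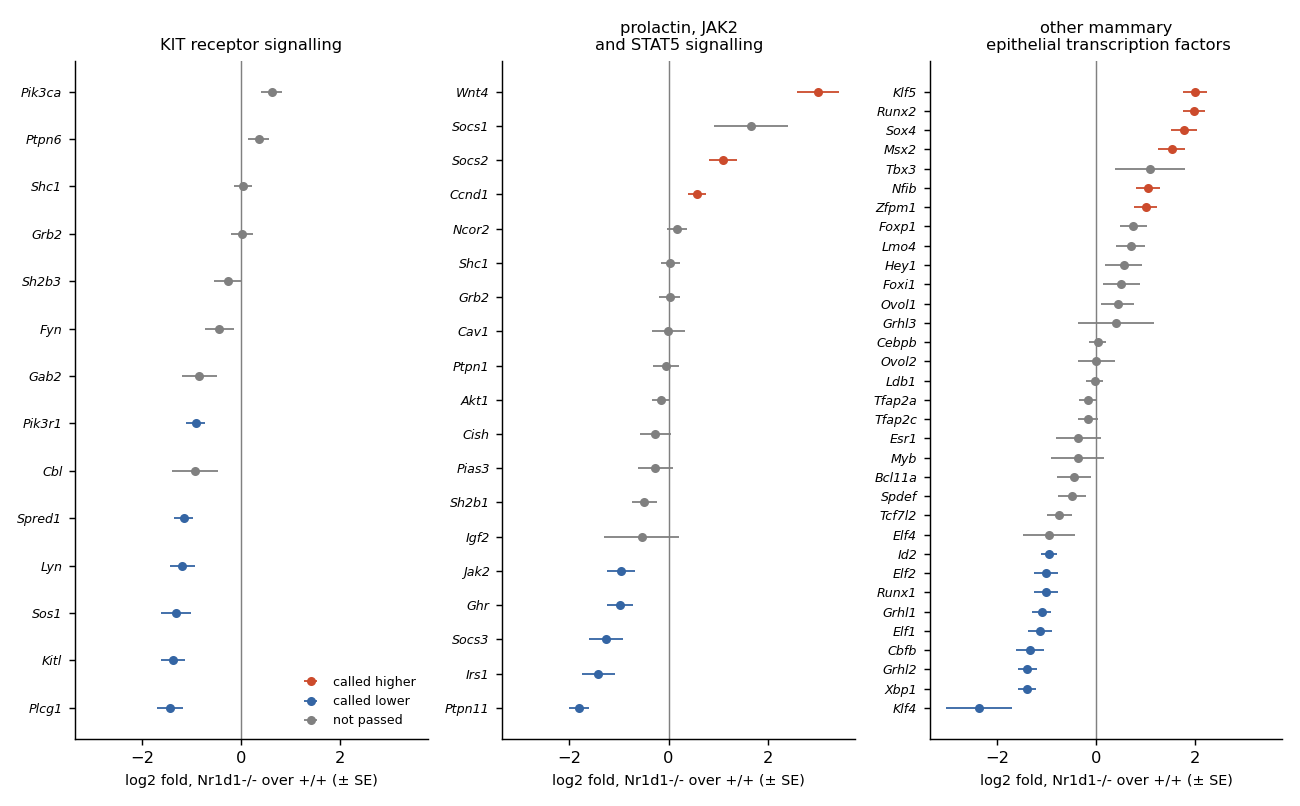
Log2 fold ± SE (x axis, libraries labelled Nr1d1-/- over those labelled Nr1d1+/+, edgeR) of each tested gene of KIT signalling, prolactin, JAK2 and STAT5 signalling, and other mammary epithelial transcription factors (panels), coloured by the call. KIT signalling has 6 lower calls, and the other panels hold calls in both directions (3 higher and 5 lower, and 6 higher and 9 lower).

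Prlr, the prolactin receptor, did not pass. It had 34.1 and 43.1 CPM under the Nr1d1+/+ label, against 38.0 and 29.6 CPM under the Nr1d1-/- label. The groups overlap. The log2 fold was -0.19 (SE 0.23, adjusted p = 0.542 by edgeR). It was -0.58 with library size only (adjusted p = 0.0782 by edgeR) and -0.52 with scaling to luminal epithelial markers (0.137). Prlr (chromosome 15, 10177238 to 10349180, plus strand) has the longest and least GC-rich transcript of the members, with 9900 bases and 39.4% GC, and its log2 fold turned to 0.39 after removal of both trends (adjusted p = 0.195 by edgeR). Counts per symbol do not separate the long and short receptor isoforms, and 203 exon bases are shared with Gm21973 on the same strand.

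Both STAT5 genes, whose proteins carry the prolactin signal to the nucleus, fell by similar amounts. Stat5a had 44.2 and 49.6 CPM under the Nr1d1+/+ label, against 20.4 and 24.0 CPM under the Nr1d1-/- label. Stat5b had 68.2 and 56.9 CPM under the Nr1d1+/+ label, against 31.0 and 34.5 CPM under the Nr1d1-/- label. For both genes the Nr1d1-/- libraries lay below the Nr1d1+/+ libraries without overlap.

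The Stat5a means were 46.9 ± 3.80 and 22.2 ± 2.53 CPM (SD, n = 2 each), a 2.11-fold fall (log2 fold -1.08, SE 0.21, adjusted p = 0.00662 by edgeR). The Stat5b means were 62.5 ± 7.99 and 32.8 ± 2.47 CPM (SD, n = 2 each), a 1.91-fold fall (log2 fold -0.93, SE 0.20, adjusted p = 0.0094 by edgeR). After removal of the GC and length trends Stat5a stood at -1.23 (adjusted p = 0.00556 by edgeR) and Stat5b at -0.775 (adjusted p = 0.0252 by edgeR). The count ratio of Stat5a to Stat5b was 0.648 and 0.871 under the Nr1d1+/+ label, against 0.657 and 0.694 under the Nr1d1-/- label, which overlap (exact two-sided permutation p = 1). These are close paralogs, and the sources used here do not say how reads that match both were counted, so the split between them is uncertain.

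Stat5b (chromosome 11, 100780731 to 100850724, minus strand) and Stat5a (100859351 to 100885169, plus strand) lie 8627 bases apart and point away from each other. They lie on the same chromosome as Nr1d1, with 2.01 Mb between Nr1d1 and Stat5b. Sox9 lies on it as well, 14.01 Mb from Nr1d1. An allele made by targeting Nr1d1 carries its flanking chromosome with it, and its part in these values was not tested. Of 36 tested genes between Nr1d1 and Stat5b 7 were higher and 4 lower (19.4% and 11.1%, against 16.5% and 17.3% of all tested genes), with a median log2 fold of 0.07. That interval leaves out Stat5b, Stat5a and Stat3. Stat3, the STAT of interleukin 6 signalling, shares 72 exon bases with Stat5a on the opposite strand and fell from 325 and 289 CPM to 96.2 and 83.0 CPM (log2 fold -1.78, SE 0.18, adjusted p = 0.00134 by edgeR).

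Genes around the prolactin receptor went both ways. Of 19 tested genes of prolactin, JAK2 and STAT5 signalling 3 rose, 5 fell and 11 did not pass, with a median log2 fold of -0.15. Jak2, the kinase bound to the receptor, went from 24.7 and 41.3 CPM to 16.2 and 17.7 CPM (log2 fold -0.96, SE 0.28, adjusted p = 0.0306 by edgeR). Jak2 no longer passed after removal of the GC and length trends (-0.49, adjusted p = 0.207 by edgeR), without Nr1d1+/+ replicate 2 (-0.57, 0.272) or without Nr1d1-/- replicate 1 (-0.90, 0.0763). Ptpn11, the phosphatase SHP2, fell from 61.3 and 58.8 CPM to 16.8 and 17.4 CPM (log2 fold -1.81, SE 0.20). Irs1, an adaptor of insulin receptor signalling, fell from 44.3 and 24.4 CPM to 15.7 and 10.2 CPM (log2 fold -1.41, adjusted p = 0.0145 by edgeR). Without Nr1d1+/+ replicate 1 Irs1 stood at -0.97 and missed the threshold (0.0839).

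Socs2, a feedback inhibitor that STAT5 induces, rose from 30.8 and 31.5 CPM to 46.9 and 85.8 CPM (log2 fold 1.10, SE 0.28, adjusted p = 0.0178 by edgeR). That call was lost with library size only (0.72, adjusted p = 0.0733 by edgeR), with luminal marker scaling (0.76, 0.0504) and without any single library but Nr1d1-/- replicate 1, with log2 folds of 1.04 and 1.09 without Nr1d1+/+ replicates 1 and 2 and 0.58 without Nr1d1-/- replicate 2. Cish, another such inhibitor, had 7.33 and 7.37 CPM against 6.08 and 6.14 CPM, lower with no overlap, and did not pass (adjusted p = 0.55 by edgeR). Of the other Socs genes in the prolactin list, Socs3 fell from 13.2 and 22.4 CPM to 8.65 and 6.21 CPM (log2 fold -1.27, SE 0.35, adjusted p = 0.024 by edgeR). Socs1 lay higher with no overlap and did not pass (1.66, 0.121). Of the 21 genes of the luminal progenitor and alveolar list 5 fell and 16 did not pass, while 33.9% of all tested genes were called. In that list 3 were higher and 6 lower at an unadjusted p under 0.05 by edgeR. DESeq2 called 2 higher and 6 lower, and limma-voom 1 higher and 5 lower. Over the 19 alternatives the list's higher calls ran from 0 to 6, with 6 under the replicate block and 4 without Nr1d1-/- replicate 1, and its lower calls ran from 3 to 8.

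The milk genes Wap (whey acidic protein), Xdh (xanthine dehydrogenase, needed to secrete milk fat) and Btn1a1 (butyrophilin, a coat protein of milk fat droplets) were among those that fell. Wap went from 260 and 387 CPM to 105 and 88.5 CPM, Xdh from 169 and 183 CPM to 54.0 and 51.3 CPM, and Btn1a1 from 73.8 and 98.1 CPM to 38.7 and 30.1 CPM. Itga2, the integrin CD49b that marks luminal progenitors, fell from 2.74 and 2.54 CPM to 0.587 and 0.683 CPM. It did not pass when Nr1d1+/+ replicate 1 (-2.02, adjusted p = 0.161 by edgeR) or replicate 2 (-2.12, 0.158), or Nr1d1-/- replicate 1 (-1.94, 0.0614), was left out. Other genes of the list went both ways. Lcn2 had 8286 and 6450 CPM against 14801 and 11248 CPM, higher with no overlap, and did not pass (0.82, adjusted p = 0.0605 by edgeR). Cd14 fell (-0.56, 0.0349), and Aldh1a3 lay lower with no overlap without passing (-1.30, 0.0599). Ltf, Plet1, Itgb3 and Wfdc18 were among those that overlapped. Some other milk genes had higher means under the Nr1d1-/- label without passing, and of these Glycam1 and Csn1s2a overlapped between the groups. Lalba, alpha-lactalbumin, had 592 and 725 CPM against 792 and 1807 CPM (0.98, adjusted p = 0.0541 by edgeR), and Glycam1 had 0.426 and 2.35 CPM against 0.806 and 16.1 CPM (2.64, 0.0862). Csn1s2a, a casein, had 14.3 and 65.3 CPM against 34.4 and 143 CPM (1.16, 0.233). The caseins Csn3 (0.07, 0.868) and Csn1s1 (-0.20, 0.721) overlapped between the groups, and Olah lay lower with no overlap (-0.51, 0.39). Csn2, which encodes beta-casein, varied more within a genotype than between them, at 81.6 and 366 CPM under the Nr1d1+/+ label, against 101 and 637 CPM under the Nr1d1-/- label.

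Other transcription factors of the mammary epithelium were called in both directions. Among 33 with enough counts 6 rose and 9 fell, and 18 did not pass, with a median log2 fold of -0.16. Runx2 rose from 24.3 and 17.5 CPM to 84.8 and 79.1 CPM (log2 fold 1.97, SE 0.22) and Klf5 from 21.7 and 16.2 CPM to 86.5 and 64.7 CPM (log2 fold 1.99, SE 0.24). Xbp1, a factor of secretory cells that drives the unfolded protein response, fell from 1346 and 1377 CPM to 523 and 513 CPM (log2 fold -1.39, SE 0.18). Grhl2, which maintains epithelial junctions, fell from 58.2 and 54.6 CPM to 20.97 and 22.3 CPM (log2 fold -1.38, SE 0.20). Among 9 tested cofactors and relatives of GATA3 and FOXA1, Zfpm1, which encodes the GATA cofactor FOG1, rose from 13.9 and 13.7 CPM to 25.1 and 30.2 CPM (log2 fold 1.0, adjusted p = 0.0128 by edgeR) and Foxc1, a forkhead factor, fell from 34.9 and 47.5 CPM to 23.5 and 27.6 CPM (log2 fold -0.69, adjusted p = 0.0483 by edgeR). The other 7 did not pass, while 33.9% of all tested genes were called. Zfpm1 did not pass after removal of the GC and length trends (0.30, adjusted p = 0.36 by edgeR) nor without Nr1d1+/+ replicate 1 (0.97, 0.0679) or replicate 2 (0.97, 0.079). Foxc1 lost its call without Nr1d1+/+ replicate 2 (-0.48, adjusted p = 0.318 by edgeR), Nr1d1-/- replicate 1 (-0.58, 0.145) or Nr1d1-/- replicate 2 (-0.83, 0.0523).

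**Figure D4:**
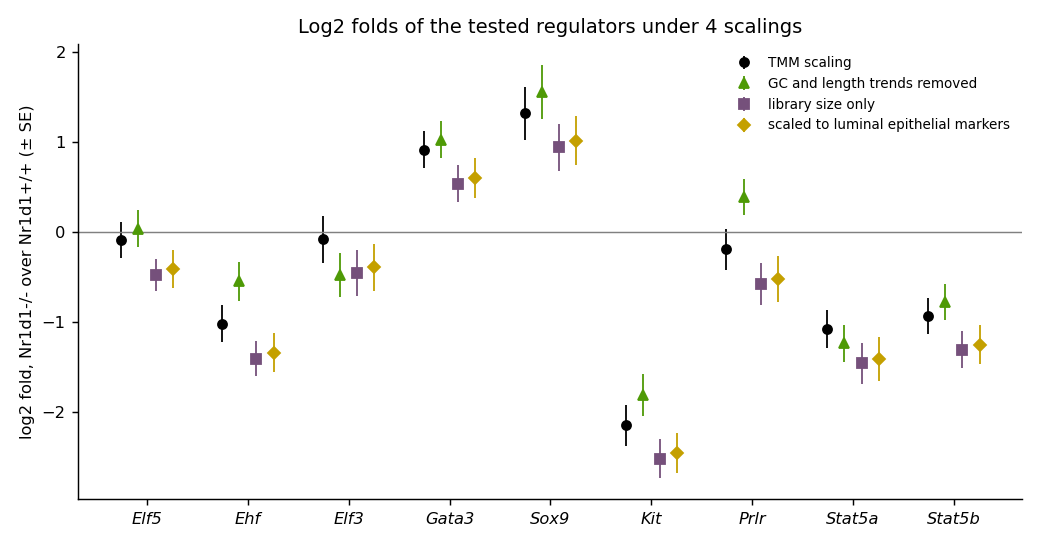
Log2 fold ± SE (y axis, libraries labelled Nr1d1-/- over those labelled Nr1d1+/+, edgeR) of the 9 tested regulators under 4 ways of scaling the libraries, given by colour and symbol. Kit, Stat5a and Stat5b stay below 0 and Gata3 and Sox9 above 0 in all of them, Ehf is nearer 0 after removal of the GC and length trends (-0.55), and Prlr crosses 0 there (0.39).

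Luminal epithelial markers were present in all 4 libraries. No other tissue was compared, so they did not check the label of mammary tumour. The summed level of 10 luminal epithelial genes was 6302 and 5331 CPM under the Nr1d1+/+ label, against 10111 and 9462 CPM under the Nr1d1-/- label. Without Krt8, Krt18 and Krt19, also left out after seeing the data, the other 7 genes summed to 2405 and 1901 CPM against 1903 and 2153 CPM, which overlap. Krt8, Krt18, Krt19 and Krt7 rose, Cdh1 fell, and 5 did not pass. Muc1 had 63.5 and 82.1 CPM against 50.9 and 50.4 CPM (-0.52, adjusted p = 0.0718 by edgeR), and Epcam overlapped (-0.36, 0.251). Krt8 went from 1269 and 1353 CPM to 2495 and 2458 CPM and Krt18 from 2056 and 1654 CPM to 4457 and 3601 CPM. After removal of the GC and length trends Krt8 (log2 fold 0.45, adjusted p = 0.152 by edgeR), Krt18 (0.57, 0.13) and Cdh1 (-0.53, 0.065) did not pass. Krt19, from 572 and 423 CPM to 1256 and 1250 CPM, still passed at 0.76 (0.0295). Krt18 also did not pass without Nr1d1-/- replicate 1 (0.95, 0.0524), nor did Cdh1 without Nr1d1+/+ replicate 1 (-0.65, 0.0638) or Nr1d1-/- replicate 1 (-0.65, 0.0682).

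Relative to these 10 markers, Kit, Stat5a, Stat5b and Ehf were lower by more than under TMM. Scaled to the markers' geometric mean, the log2 folds were -2.46 for Kit, -1.41 for Stat5a, -1.25 for Stat5b and -1.34 for Ehf, and Sox9 stood at 1.01 (adjusted p = 0.0144 by edgeR). The median log2 fold of all tested genes moved to -0.33 under this scaling, and 25.3% of calls went upward, compared with 48.8% under TMM.

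Genes of other cells also differed between the groups. Of 14 basal and myoepithelial genes 6 rose, 1 fell and 7 did not pass. The gene that fell was Trp63, the p63 factor of the basal lineage, from 10.8 and 15.3 CPM to 6.16 and 6.76 CPM (log2 fold -1.01, SE 0.32, adjusted p = 0.038 by edgeR), a call lost with no filter on low counts, with limma-voom, without either Nr1d1-/- library and without Nr1d1+/+ replicate 2. Krt14 went from 65.3 and 58.9 CPM to 209 and 202 CPM (adjusted p = 0.00132 by edgeR), Acta2 from 23.6 and 21.1 CPM to 49.2 and 135 CPM, and Krt5 had 34.8 and 53.2 CPM against 51.2 and 84.9 CPM without passing. The log2 fold of Acta2, 2.04, was 1.12 without Nr1d1-/- replicate 2 (adjusted p = 0.00983 by edgeR). Krt5 passed when Nr1d1-/- replicate 1 was left out (0.95, 0.0295). Krt17, a basal keratin, rose from 17.4 and 11.5 CPM to 27.2 and 53.9 CPM, and it lost the call after removal of the GC and length trends (0.84, 0.0913) and without Nr1d1+/+ replicate 2 (1.21, 0.0691) or Nr1d1-/- replicate 2 (0.89, 0.0591). Cnn1, smooth muscle calponin, rose from 0.331 and 0.575 CPM to 1.47 and 5.77 CPM, and it lost the call without Nr1d1+/+ replicate 1 (2.64, 0.101), Nr1d1+/+ replicate 2 (3.44, 0.0729) and Nr1d1-/- replicate 2 (1.67, 0.141). The summed level of 8 adipocyte genes was 267 and 183 CPM under the Nr1d1+/+ label, against 1428 and 781 CPM under the Nr1d1-/- label, and that of 7 endothelial genes was 44.2 and 54.6 CPM against 70.5 and 95.2 CPM. Of the tested genes 3 of 7 adipocyte genes (Lpl, Fabp4 and Adipoq) and 4 of 7 endothelial genes (Eng, Vwf, Emcn and Pecam1) rose and the rest did not pass. Of that rest, Kdr (3.97 and 7.09 CPM against 1.91 and 3.04 CPM, log2 fold -1.14, adjusted p = 0.0922 by edgeR) and Cdh5 (-0.46, 0.302) lay lower with no overlap, and 1 endothelial gene was called lower with library size only and with luminal marker scaling. Lpl, lipoprotein lipase, rose from 239 and 131 CPM to 1304 and 689 CPM, and it made up most of the adipocyte sum in every library. Of these 7 genes Adipoq lost the call without Nr1d1+/+ replicate 1 (1.84, adjusted p = 0.0843 by edgeR) or Nr1d1-/- replicate 1 (2.02, 0.125), with DESeq2 (2.89, 0.244) and after removal of the GC and length trends (2.65, 0.0541). It also lost it with no filter on low counts (2.82, 0.0674) and with the older quasi-likelihood estimate (2.87, 0.071), and its log2 fold was 7.04 without Nr1d1+/+ replicate 2, where the Nr1d1+/+ library left had 1 count. Pecam1 lost it without Nr1d1+/+ replicate 1 (0.56, 0.273) or replicate 2 (0.85, 0.127), or Nr1d1-/- replicate 2 (0.54, 0.175), with library size only (0.35, 0.321) and with luminal marker scaling (0.40, 0.282). Emcn lost it without Nr1d1+/+ replicate 1 (1.32, 0.0884) or Nr1d1-/- replicate 2 (1.02, 0.0816), and Vwf without Nr1d1+/+ replicate 2 (1.75, 0.0664). Among the adipocyte genes that did not pass, Plin1 (1.36, adjusted p = 0.32 by edgeR), Cidec (1.03, 0.445) and Cd36 (-0.23, 0.741) overlapped between the groups. Pparg lay higher with no overlap (0.49, 0.628). Lep was not tested and had 1 and 9 counts against 0 and 0. The part of these other cells in the regulators' values was not tested.

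Per kilobase of the longest transcript, the scale on which genes can be compared, Elf5 stood highest in every library, at 170 to 227 CPM per kilobase. In the libraries labelled Nr1d1+/+ the mean order was Elf5 (211 CPM per kilobase), Ehf (114), Sox9 (53.8), Kit (31.2), Elf3 (13.8), Stat5b (11.995), Gata3 (11.9), Stat5a (11.8), Prlr (3.90) and Foxa1 (0.0819). Elf3, Stat5b, Gata3 and Stat5a did not differ beyond the spread of their libraries there. In the libraries labelled Nr1d1-/- Sox9 (134) stood above Ehf (56.4), Gata3 (22.4) came next, and Kit (7.05) came after Elf3 (13.0), close to Stat5b (6.28) and Stat5a (5.60). Over the union of all annotated exons, a length chosen after seeing the data, Elf5 (114 over all 4 libraries) and Sox9 (94.0) still led, but Sox9 (134) stood above Elf5 (110.2) under the Nr1d1-/- label, where Gata3 (18.1) and Elf3 (12.3) also stood above Kit (4.14). Under the Nr1d1+/+ label Kit (18.3) stood above Elf3 (13.0) and Gata3 (9.60) on that length.

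**Figure D5:**
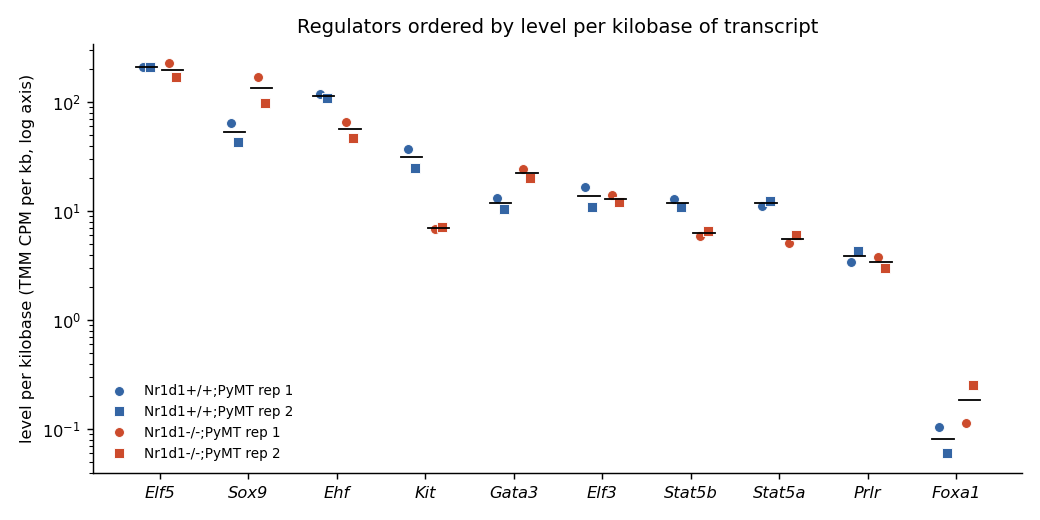
Level of each regulator per kilobase of its longest transcript (y axis, TMM CPM per kilobase on a log axis), ordered by the mean over the 4 libraries, with colours and symbols for genotype and replicate and black bars for group means. Elf5 leads in every library (170 to 227), Foxa1 is last (0.06 to 0.253), and Kit and Gata3 change places between the genotypes.

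The members' own patterns over the 4 libraries fell near each other in a few pairs. Likeness was measured as the root mean square difference of log2 CPM, each gene centred on its own mean over the 4 libraries, and it was smallest for Elf5 with Prlr (0.129), Stat5a with Stat5b (0.172), Elf5 with Elf3 (0.233), Ehf with Stat5b (0.237) and Ehf with Stat5a (0.276). Gata3 with Sox9 came next (0.28). Among 10820 other genes the nearest to Kit were Rad50 (0.124), Zfp60 (0.127) and P3h2 (0.143), and 31 lay within 0.25. The nearest to Sox9 were Katnal1 (0.0399), Mettl2 (0.0518) and Gad2 (0.0685), with 314 within 0.25. These are descriptions over 4 libraries.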

How the data were processed

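Total RNA of 4 mammary tumour samples was extracted with Trizol and made into libraries with a stranded SMARTer kit, per the labels' protocols. Each deposited file holds unnormalised counts by gene symbol, and reads were aligned with TopHat to mm10, per the submitters' processing notes. The sources used here do not give versions, the counting program, its annotation or its use of strand. Symbols were matched to GENCODE M21 (GRCm38, equal to mm10): 22197 symbols directly, 668 by a synonym and 373 not at all.

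Genes were filtered with edgeR's filterByExpr (minimum count 10), scaled with TMM (factors 1.11, 1.18, 0.859 and 0.895 for Nr1d1+/+ replicates 1 and 2 and Nr1d1-/- replicates 1 and 2) and compared by edgeR 4.0.16 with its quasi-likelihood F test in R 4.3.3 (legacy=FALSE, 2 residual degrees of freedom, Benjamini-Hochberg adjustment over 14801 genes). DESeq2 1.42.0 and limma-voom (limma 3.58.1) were alternatives, as were other scalings and filters, natural splines (5 degrees of freedom) on GC content and transcript length, a replicate block and leaving out each library. 1 count was 0.0523, 0.0563, 0.0629 and 0.0555 CPM of the total, in the order above. The fit was also run on simulated counts with few changed genes and no GC or length trends, which does not check the calls here.

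The members and lists were chosen with earlier results of these data known. Named are all members, up to 4 called genes of each list with the lowest p, 12 fixed genes whatever their result, the 3 genes most like the top member in each direction, and, chosen after their values were seen, Stat3, Trp63, Krt7, Muc1, Epcam, Lalba, Glycam1, Csn1s2a, Csn3, Csn1s1, Olah, Pik3ca, Ptpn6, Kdr, Cdh5, further T cell genes and the sparse markers of mast cells, cartilage and hormone-sensing cells. Lcn2, Cd14, Aldh1a3, Ltf, Plet1, Itgb3, Wfdc18, Socs1, Socs3, Plin1, Cidec, Cd36, Pparg and Lep were likewise named after their values were seen. The planned protein comparison was not run. Replicate numbers were not treated as pairs: same-numbered libraries deviated together with a correlation across genes of 0.0464. Figures were drawn with matplotlib 3.10.9.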

Additional observations from a re-analysis of the deposited data

How the results depend on the processing

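Of the 19 alternatives, Kit, Sox9 and Stat5a kept their direction and call in every one, with log2 folds of -2.52 to -1.77, 0.86 to 1.65 and -1.46 to -0.97. Exceptions of single members were Gata3 with library size only (0.54), with luminal marker scaling (0.60), with a minimum absolute log2 fold of 1 (0.91) and without Nr1d1+/+ replicate 2 (0.73; 0.73 to 1.04 over the fits without 1 library), Stat5b with that minimum (-0.93), and Ehf with GC and length trends removed (-0.55). The members called higher fell from 2 to 1 in the same 4 settings as for Gata3 (1 to 2 over the fits without 1 library), and 4 were called lower in all but 2 settings, where 3 were. Signs turned with the trends removed for Elf5 (0.037), Prlr (0.39) and Esr1 (0.11), and with the replicate block and trends removed together for Elf5 (0.019), Prlr (0.38) and Esr1 (0.084). Over the fits without 1 library, Elf5 ran from -0.32 to 0.087, Elf3 from -0.38 to 0.21, Nr1d1 from -0.80 to 0.14 and Csn2 from -1.16 to 2.17, the log2 ratio of Stat5a over Stat5b from -0.37 to 0.060 and that of Elf5 over Elf3 from -0.36 to 0.26. Elf3 without Nr1d1-/- replicate 2 was 6.264e-05.

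Of all genes, 2446 were higher and 2565 lower. The counts were 1281 and 4410 with library size only (22.5% of calls higher, median log2 fold -0.38), 1355 and 4003 with luminal marker scaling, 1501 higher with the minimum fold and 1626 lower with the trends removed. Over the fits without 1 library they ran from 1036 to 2358 higher and from 1170 to 2401 lower. The replicate block gave 2622 higher and 2704 lower and changed no member's call, and with the trends removed as well Ehf passed. What a shared replicate number means is not in the labels. The cause of these changes was not tested. Depth limits Foxa1 and the mast cell and cartilage markers, which had few counts.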
